A study of Homo sapiens with 2 samples.

Results

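The 7 genes examined here encode the core binding factor and its corepressors, namely *RUNX1*, *RUNX2* and *RUNX3*, their shared partner *CBFB*, and the ETO genes *RUNX1T1*, *CBFA2T2* and *CBFA2T3*. They were chosen by symbol and matched to gene IDs, with positions from GENCODE 44 on GRCh38, and all 7 were among the 57773 genes counted. RNA had been sequenced from REH and 697, 2 established lines of human B-cell precursor leukemia cells, grown in RPMI with serum and with no further treatment named. REH is positive for ETV6/RUNX1, a fusion of both genes, and its second *ETV6* allele is missing, whereas 697 lacks that fusion. Each line was represented by 1 library, so no test between lines was possible, and each difference below is one between these libraries. REH gave 45188375 reads in genes and 697 gave 41097497.

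RUNX proteins bind DNA through the runt domain, and CBFB, which does not bind DNA itself, joins them and strengthens that binding. RUNX1 is needed for the emergence of blood stem cells and for B-cell development, RUNX2 directs bone formation, and RUNX3 acts in T cells, natural killer cells and sensory neurons. The ETO proteins bring NCOR corepressors and histone deacetylases to transcription factors, among them the E proteins that steer early B cells. Several of these genes are broken in leukemia, *RUNX1* by fusion to *ETV6* or to *RUNX1T1*, *CBFB* by fusion to *MYH11* and *CBFA2T3* by fusion to *GLIS2*.

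Promoter sequences from RefSeq (GRCh38.p14, 250 bases before to 50 after a start) were examined for 5 of the 7 genes, with 7 windows in all. They were searched on both strands for TGTGGT and TGCGGT, the letters that the runt domain is known to bind. *CBFB* and *RUNX1T1* are not among them. The windows of *RUNX1* (chr21:34888650-34888949), *CBFA2T2* and *CBFA2T3* lie inside the annotated spans of these genes, so starts farther upstream were not searched. A match was found in 2 of the 7 windows, compared with 19.6% of 35116 windows of the same length over the genome. Both were windows at the distal starts, of *RUNX2* and of *RUNX3*, and they are shown as the windows that held matches. Matches are in capitals, and ACCACA is TGTGGT read on the other strand.
RUNX2 distal start, chr6:45328080-45328379, plus strand: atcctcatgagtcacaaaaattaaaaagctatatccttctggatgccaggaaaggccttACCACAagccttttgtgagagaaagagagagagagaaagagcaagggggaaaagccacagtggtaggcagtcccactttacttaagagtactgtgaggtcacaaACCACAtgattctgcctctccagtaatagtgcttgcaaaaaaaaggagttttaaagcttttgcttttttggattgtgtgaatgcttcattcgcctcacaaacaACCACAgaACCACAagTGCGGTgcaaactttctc
RUNX3 distal start, chr1:24964961-24965260, minus strand: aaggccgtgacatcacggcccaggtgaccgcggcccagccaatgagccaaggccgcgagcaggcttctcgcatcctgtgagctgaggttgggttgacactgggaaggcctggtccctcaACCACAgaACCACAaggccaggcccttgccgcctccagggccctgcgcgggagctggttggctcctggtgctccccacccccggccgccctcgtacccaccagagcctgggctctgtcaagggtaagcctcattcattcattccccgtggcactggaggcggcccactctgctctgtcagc
CBFA2T3, chr16:88941301-88941600, minus strand: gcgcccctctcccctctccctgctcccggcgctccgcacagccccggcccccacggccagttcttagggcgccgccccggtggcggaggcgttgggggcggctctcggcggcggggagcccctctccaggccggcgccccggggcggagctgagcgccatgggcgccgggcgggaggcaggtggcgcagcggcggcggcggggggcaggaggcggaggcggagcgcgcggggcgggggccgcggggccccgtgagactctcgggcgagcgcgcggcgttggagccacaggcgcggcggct
The *RUNX2* window held 5 matches, none overlapping another, a number reached by 4 of the 35116 windows (0.0114%). The *RUNX3* window held 2, as many or more than which were found in 2.32% of windows. The *CBFA2T3* window is shown for contrast, since this gene differed most between the lines. It held no match and had a GC content of 83%, above 99.2% of all windows, with 46 CpG dinucleotides. Base composition also set the 2 *RUNX2* starts apart, with 42.7% GC and 2 CpG at the distal start and 76% GC and 39 CpG at the proximal start (chr6:45422025-45422324), where no match was found. A match describes letters in the window and does not show binding.

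The minimum for comparing the lines was 10 reads in either library, which 5 of the 7 genes reached, while 2 had 0 reads in both. Levels are given as CPM, counts per 1000000 reads in genes with the library totals scaled by the trimmed mean of M-values (TMM). The log2 ratio is that of REH over 697 with 0.5 reads added to each count, and its 95% interval is the exact Clopper-Pearson interval of counting error, which says nothing of the variation between cultures or of duplicate reads. Lines were called different for a gene where this ratio reached 2 or -2. By that rule 1 of the 5 genes, *CBFA2T3*, was higher in REH, and none was higher in 697. Of all 19145 genes tested, 12.5% passed towards REH and 8.15% towards 697 (20.7% in all), and of the coding genes 10.9% and 7.17% (18.1% in all), so the number of members past the threshold was near the background.

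**Figure D1:**
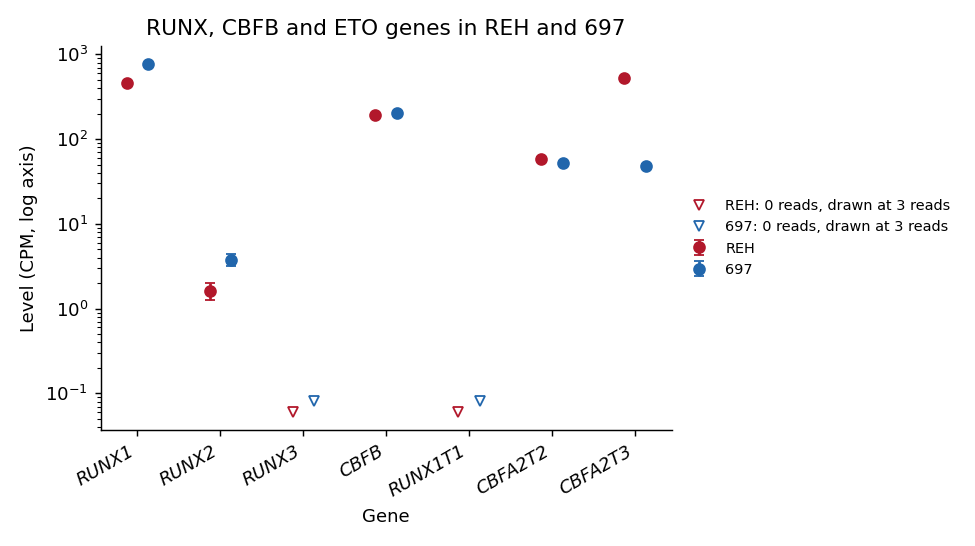
Level of each gene (CPM, log axis) in the REH library (red) and the 697 library (blue), with 95% exact counting intervals as bars. *CBFA2T3* stood at 523 CPM in REH and 48.7 CPM in 697, and open triangles mark *RUNX3* and *RUNX1T1*, which had 0 reads and are drawn at the level of 3 reads.

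Among the DNA-binding subunits, *RUNX1* (ENSG00000159216, chr21:34787801-36004667) carried nearly all reads of the family in both lines. In REH these reads can stem from the intact gene or from the fusion transcript, which gene counts cannot tell apart. It had 22862 reads in REH and 28634 in 697. The log2 ratio was -0.77 (-0.79 to -0.74), a 1.70-fold higher level in 697, and 43.4% of the 13489 protein-coding genes tested had a ratio at least as large in size. *RUNX1* was thus abundant in both lines and lower in the line with the fusion. Per kb of exon it stood above 91.0% of tested coding genes in REH and above 94.7% in 697. The ratio left its interval under other scalings (-0.80 with DESeq2 size factors and -0.46 with unscaled totals) but kept its sign. Of 7 other counted genes within its span, 6 had 0 reads in both libraries and the pseudogene *EZH2P1* had 4 and 3. *ETV6*, the fusion partner and a repressor of the ETS family, was lower in REH too, at 3.67 against 12.7 CPM per kb. In REH, whose second *ETV6* allele is missing, these reads can stem from the rearranged allele. The fusion holds only the N-terminal part of *ETV6*, whereas both levels use all 7.23 kb of exon. The 2 values therefore need not describe the same transcript.

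*RUNX2* (ENSG00000124813, chr6:45328157-45664349) was close to silent. It had 81 reads in REH (1.61 CPM, 1.28 to 2.0) and 139 reads in 697 (3.76 CPM, 3.16 to 4.44). The log2 ratio was -1.22 (-1.64 to -0.82), a 2.33-fold higher level in 697 that did not reach the threshold of 2. At a threshold of 1, *RUNX2* counted as higher in 697, together with 17.4% of all genes tested and 15.5% of the coding genes (39.8% and 35.0% in either direction, 22.4% and 19.5% towards REH). With unscaled totals its ratio was -0.91 and this count was lost. The *RUNX2* start lies inside *SUPT3H*, a coding gene on the opposite strand with counts of 1000 in REH and 492 in 697 (log2 ratio 0.58). That ratio has the opposite sign to that of *RUNX2*. The antisense gene *RUNX2-AS1* had 0 reads in both libraries, and ENSG00000271857, also on the opposite strand, had 5 and 2.

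*RUNX3* (ENSG00000020633, chr1:24899511-24965121) had 0 reads in both libraries and on both strands. A count of 0 allows up to 3 reads, or 0.0597 CPM in REH and 0.0812 CPM in 697. Per kb of exon, *RUNX1* was at least 2408-fold higher than *RUNX3* in REH and at least 3016-fold higher in 697. Even *RUNX2* was at least 16.2-fold and 27.8-fold higher. The antisense *RUNX3-AS1* had 0 reads in both lines too. A gene with no read in either library is not rare in these data, since 3280 of 19208 protein-coding genes (17.1%) had none.

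Within the family, shares of the summed level per kb do not depend on how libraries are scaled. *RUNX1* made up 99.3% of the RUNX level in REH (99.2% to 99.5%) and 99.1% in 697 (98.9% to 99.2%), and *RUNX2* made up 0.669% and 0.914%. The intervals of the lines overlapped for each gene, and the makeup of the family was nearly the same. The sum differed more, 29.4 CPM per kb in REH and 50.2 in 697.

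*CBFB* (ENSG00000067955, chr16:67028984-67101058), the partner of all 3 RUNX proteins, was nearly level between the lines. It had 9577 reads in REH and 7425 in 697, or 191 and 201 CPM. The log2 ratio was -0.08 (-0.12 to -0.03), and it changed sign to 0.23 when totals were not TMM-scaled, so no direction can be given. *CBFB* had the smallest ratio of the 5 genes, and 93.1% of tested coding genes had one at least as large in size. Set against its partners, *CBFB* reached 1.39 times the RUNX sum per kb in REH and 0.860 times in 697. With the longest transcript as length these became 0.968 and 0.598, so whether *CBFB* exceeded the sum in REH rests on the length used. These are RNA levels over annotated exon length, and the amounts of protein were not measured.

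The makeup of the ETO family, unlike that of the RUNX family, was clearly different between the lines. *RUNX1T1* (ENSG00000079102, chr8:91954972-92103286), known as ETO, had 0 reads in both libraries, as had the overlapping antisense gene ENSG00000253576. Per kb, *CBFA2T2* was at least 1414-fold higher than *RUNX1T1* in REH and at least 910-fold higher in 697. *CBFA2T2* (ENSG00000078699, chr20:33490075-33650036), known as MTGR1, had 2964 reads in REH and 1909 in 697. This corresponded to 59.0 and 51.7 CPM and a log2 ratio of 0.19 (0.11 to 0.27). The gene was at mid-range in both lines, above 55% and 51.6% of tested coding genes per kb.

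*CBFA2T3* (ENSG00000129993, chr16:88874858-88977207), known as ETO2 or MTG16, had 26271 reads in REH and 1801 in 697. It reached 523 CPM in REH (516 to 529) and 48.7 CPM in 697 (46.5 to 51.1). The log2 ratio was 3.42 (3.35 to 3.49), or 10.7-fold, and it lay between 3.39 and 3.73 under the 7 other settings tried. This was the single member past the threshold, and 951 of 13489 tested coding genes had a ratio as high or higher. Per kb of exon *CBFA2T3* stood above 98.5% of coding genes in REH and above 61.7% in 697, so it was well expressed in 697 too.

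**Figure D2:**
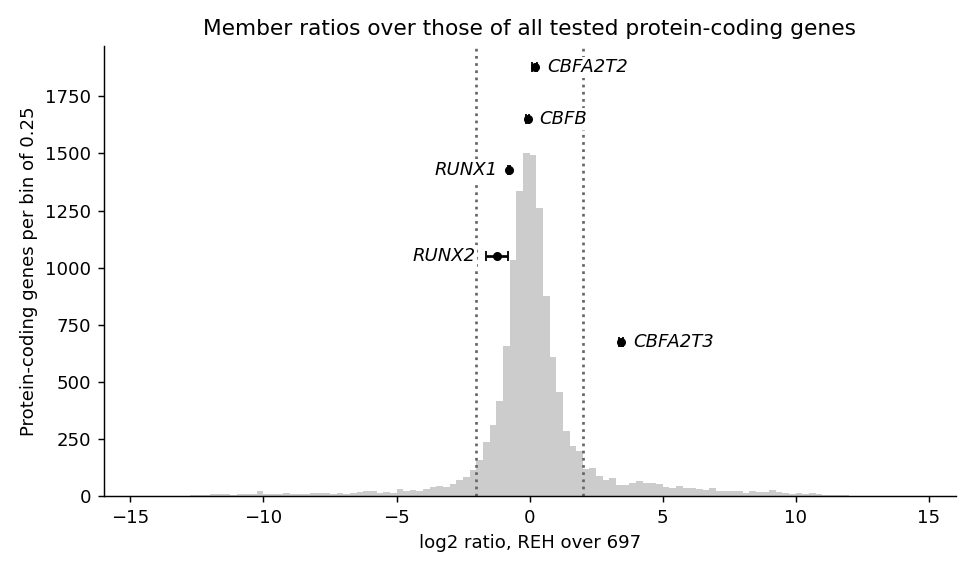
Histogram of the log2 ratio (REH over 697) of 13489 protein-coding genes in bins of 0.25, with the 5 counted members as points at their ratio, 95% exact counting intervals as bars and dotted lines at 2 and -2. Points are spread in height for legibility, and *CBFA2T3* at 3.42 is the one outside the lines while the other 4 lie between -1.22 and 0.19.

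The makeup of the ETO level differed between the lines. *CBFA2T3* made up 93.3% of it in REH (93.1% to 93.6%) and 59.9% in 697 (58.3% to 61.4%), with *CBFA2T2* supplying the rest. The 2 genes thus stood at 14.0 to 1 in REH and 1.49 to 1 in 697. Without division by the exon lengths of 5.98 and 9.46 kb the share of *CBFA2T3* in 697 was 48.5%, from 1801 reads against 1909 for *CBFA2T2*. With reads dropped as shared with a gene on the opposite strand, *CBFA2T3* had 2113 reads in 697. Which of the 2 genes leads in 697 thus rests on division by length and on how shared reads are counted. Summed over the family, ETO genes had 29235 reads in REH and 3710 in 697, a log2 ratio of 2.53 (2.48 to 2.58). The summed RUNX genes went the other way, with a log2 ratio of -0.77.

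**Figure D3:**
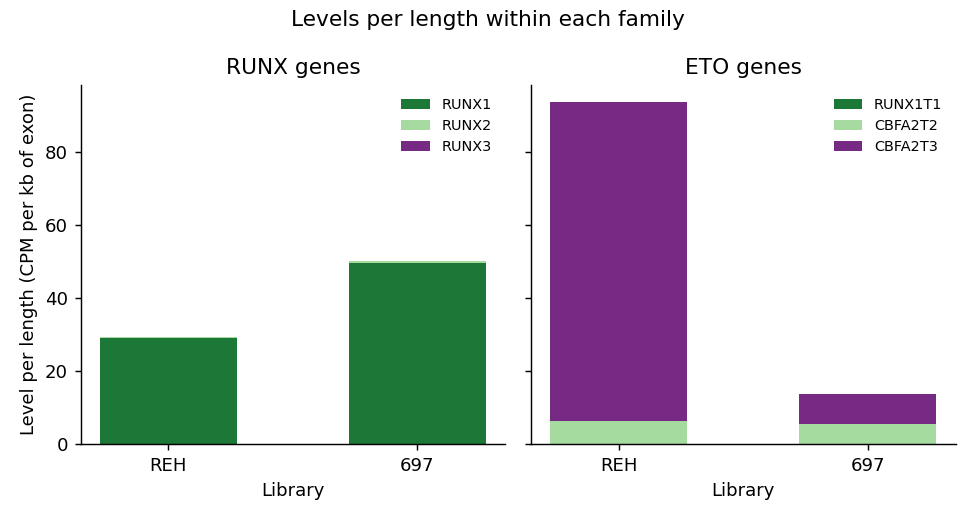
Level per length (CPM per kb of summed exon) of the RUNX genes (left) and the ETO genes (right), stacked by gene, in each library. The RUNX bars reach 29.4 in REH and 50.2 in 697 and are almost wholly *RUNX1*, whereas the ETO bars reach 93.7 and 13.6 and differ by their *CBFA2T3* part.

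Ordered per kb of exon, the genes in REH ran from *CBFA2T3* (87.5 CPM per kb) through *CBFB* (41), *RUNX1* (29.2) and *CBFA2T2* (6.24) to *RUNX2* (0.197). In 697 the order was *RUNX1* (49.8), *CBFB* (43.2), *CBFA2T3* (8.16), *CBFA2T2* (5.46) and *RUNX2* (0.459). *CBFA2T3* therefore stood at 3.0 times the level of *RUNX1* in REH, and *RUNX1* at 6.10 times that of *CBFA2T3* in 697. With the longest transcript as length these became 1.87 and 9.79. Neighbours in these orders were farther apart than their counting error, but the spread between cultures is unknown and length matters. By that length *RUNX1* (62.5) and *CBFB* (60.8) changed places in REH. Exons summed over all *RUNX1* transcripts come to 15.6 kb, against 7.27 kb in the longest.

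The locus of *CBFA2T3* was then examined, since 3 lncRNA genes lie within its span. ENSG00000261226, on the same strand, had counts of 861 in REH and 13 in 697 (log2 ratio 5.55, 4.82 to 6.52). ENSG00000259881, on the opposite strand, had 435 and 22 reads (log2 ratio 3.83, 3.24 to 4.55), after 90.3% and 93.4% of its strand-assigned reads had been dropped as shared with *CBFA2T3*. ENSG00000205018, also on the opposite strand and spanning the promoter window printed above, had 172 and 4 reads (log2 ratio 4.82, 3.60 to 6.87). All 3 were higher in REH, as the host gene was, and gene counts do not separate them from unspliced RNA of that gene. Reads fell evenly on the strands, 15154 on that of *CBFA2T3* and 15172 on the other in REH and 1032 and 1081 in 697, so transcripts of opposite strands cannot be told apart here.

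Both *CBFB* and *CBFA2T3* lie on chromosome 16, whose other 636 tested coding genes had a median log2 ratio of 0.69, compared with 0.02 over all coding genes tested. The 10 tested coding genes on either side of each member were therefore compared, a step chosen after the values had been seen. Around *CBFA2T3*, 14 of 20 neighbours had a ratio above 0, with a median of 0.84, a lowest value of -8.43 for *CPNE7* (21 and 5432 reads) and a highest of 2.42 for *SNAI3*. *CBFA2T3*, at 3.42, was above each of the 20. Around *CBFB*, 15 of 20 neighbours had a ratio above 0, with a median of 0.64, whereas *CBFB* itself was at -0.08. The nearest on one side, *CES4A* (350 and 4 reads) and *CES3* (1997 and 25 reads), both carboxylesterases, had log2 ratios of 5.84 and 5.85. Around *RUNX1* the median of 20 neighbours was 0.33 and that of 129 other coding genes on chromosome 21 was 0.35, both of opposite sign to the -0.77 of *RUNX1*. Around *CBFA2T2* the median was -0.12, and around *RUNX2* it was 0.63, of opposite sign to the -1.22 of *RUNX2*. Of the 20 neighbours of *RUNX2*, 6 were higher in REH and 1 in 697. Over all tested coding genes these shares were 10.9% and 7.17%, and on chromosome 6 the counts were 95 and 35 of 704 other coding genes. For the genes with 0 reads the median was -0.01 around *RUNX3* and -0.75 around *RUNX1T1*. The part of these chromosome-wide values in the ratios of the members was not tested.

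**Figure D4:**
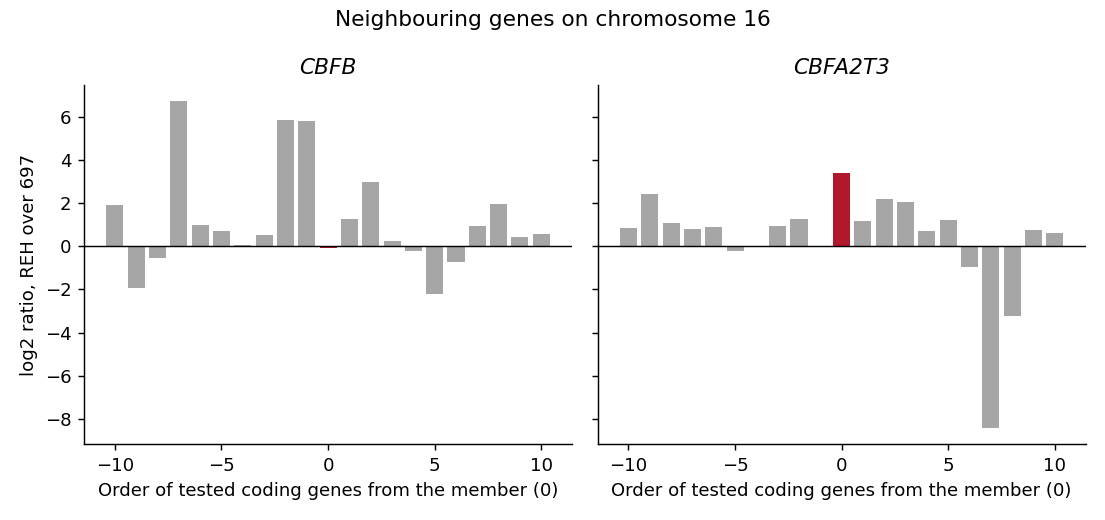
Log2 ratio (REH over 697) of the 10 tested coding genes on each side of *CBFB* (left) and *CBFA2T3* (right) in chromosomal order, the member itself in red at position 0. *CBFA2T3* at 3.42 exceeds its 20 neighbours, of which *SNAI3* is highest at 2.42, while *CBFB* at -0.08 lies among neighbours with a median of 0.64.

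The cofactors through which RUNX proteins activate or repress lay on both sides of 0, with 12 ratios above and 11 below. Of 24 genes listed, 23 were above the minimum, with 1 past the threshold towards each line. Over all genes tested, 12.5% passed towards REH and 8.15% towards 697. The median log2 ratio of the list was 0.02 against 0.05 for all genes tested. The gene higher in REH was *TLE3*, one of the Groucho corepressors that bind the C-terminal motif of RUNX proteins. Its counts were 3639 in REH and 1 in 697 (log2 ratio 10.80, 8.91 to 16.69). The other Groucho genes did not share this, as *TLE4* (-1.48) and *TLE2* (-1.0) had lower levels in REH and *TLE1* was at 0.03. *WWTR1*, which encodes the Hippo coactivator TAZ, was the gene higher in 697, with 36 and 389 reads (log2 ratio -3.86, -4.41 to -3.38). The next highest ratios in REH were those of the acetyltransferase *CREBBP* (1.41) and of *TBL1X* (1.32), a subunit of the NCOR complex. *YAP1* had 1 read in REH and 0 in 697.

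Partners of the ETO proteins in blood cells were compared next. Of 13 genes listed, 8 had at least 10 reads. None passed the threshold in either direction, compared with 20.7% of all genes tested. The median log2 ratio was 0.51 against 0.05 for all genes tested. The highest ratios were those of *LYL1* (5154 and 1108 reads, 1.77), *LMO2* (2213 and 738 reads, 1.14) and the repressor *GFI1* (5157 and 1758 reads, 1.11), members or partners of the transcription complex in which ETO2 acts in blood stem cells. The lowest were those of the E proteins *TCF4* (5151 and 14061 reads, -1.89), *TCF12* (-0.53) and *TCF3* (-0.08). *BCL6*, a repressor of germinal center B cells, stood between these groups (6165 and 2757 reads, 0.72). The 5 partners under the minimum were at or near 0 in both lines. *TAL1* had no read in either library, *GATA1* had 1 and 5, *GATA2* had 6 and 0, *GFI1B* had 0 and 1, and *ZBTB16* had 1 and 0. The high *CBFA2T3* level in REH was therefore measured beside *LYL1*, *LMO2* and *LDB1* (9271 and 5538 reads, 0.30) but without reads for *TAL1*.

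Blood genes known as direct RUNX targets spread widely. Of 18 listed, 13 were above the minimum, 4 were higher in REH and none in 697, compared with 12.5% and 8.15% of all genes tested. The median log2 ratio was 1.11, the value of *GFI1*, against 0.05 for all genes tested. *GFI1* is also listed among the ETO partners. With a minimum of 50 reads the median was 0.75. *MPO* and *CSF1R* are also on the list of myeloid markers, whose summed level was 261 CPM in REH and 2.27 in 697, and the part of these markers in the result was not tested. Myeloperoxidase, *MPO*, was counted 12643 times in REH and 12 times in 697 (log2 ratio 9.54), the protein kinase C gene *PRKCB* had 16704 and 87 (7.13), and *SPI1*, encoding PU.1, had 2810 and 19 (6.73). The integrin gene *ITGAL* had 46 and 0 reads and was at least 11.3-fold higher in REH. Values ran the other way for *CSF1R* (30 and 61 reads, -1.46), the kinase *BLK* (5516 and 9553 reads, -1.24) and *ZBTB7B* (603 and 727 reads, -0.71). Among the targets also listed as B-cell precursor markers, *CD79A* was at 1.19, *EBF1* at 0.13 and *PAX5* at -0.63. *CSF2*, *IL3*, *ELANE*, *GZMB* and *CD4* had 0 reads in both libraries.

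The bone and cartilage targets of RUNX2 had few reads, as *RUNX2* had, apart from *COL1A1*. Of 8 listed, 3 had at least 10 reads and none passed the threshold, compared with 20.7% of all genes tested. *BGLAP*, encoding osteocalcin, had counts of 42 in REH and 10 in 697 (log2 ratio 1.57, 0.61 to 2.79), *SPP1* had 12 and 9 (-0.05), and *COL1A1* had 477 and 387 (-0.14, -0.34 to 0.05). The intervals of the latter 2 included 0, and the median of the 3, -0.05, changed sign with other settings (0.65 with reads on the strand of the gene). *SP7* had 1 and 3 reads, *COL10A1* had 5 and 0, *ALPL* had 2 and 0, and *IBSP* and *MMP13* had none.

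Of 10 genes whose products modify RUNX proteins or set their stability, each was above the minimum. Past the threshold, 1 was higher in REH and none in 697, compared with 12.5% and 8.15% of all genes tested. The gene higher in REH was *CDK6*, a cell cycle kinase that also binds RUNX1. Its counts were 45649 in REH and 2989 in 697 (log2 ratio 3.49, 3.44 to 3.54). *PIM1* (1.52) and *STUB1* (0.45) followed, the latter with 64.1% and 63.4% of its strand-assigned reads dropped as shared with genes on the other strand, and the lowest ratios were those of *CCND3* (-1.30), *SMURF1* (-1.17) and *SMURF2* (-0.53). The median was 0.09. *CCND3*, which encodes a cyclin that partners with CDK6, thus had the lowest ratio of the list while *CDK6* had the highest.

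**Figure D5:**
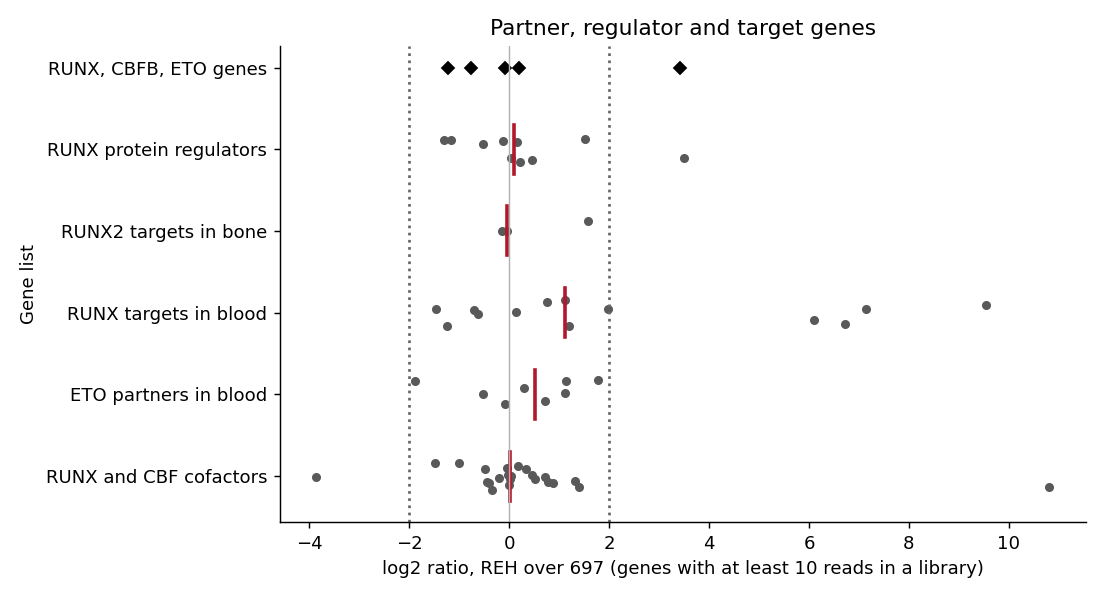
Log2 ratio (REH over 697) of each listed gene above the minimum of 10 reads, by list, with red bars at list medians, dotted lines at 2 and -2, and the 5 counted members as diamonds on top. Medians lie between -0.05 and 1.11, and the points farthest to the right are *TLE3* at 10.80 and *MPO* at 9.54, while *ITGAL*, with 0 reads in 697, is drawn at 6.10, which depends on the 0.5 reads added.

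Among the 70 listed genes with enough reads outside the family, those most like each member were found by the distance between their paired log2 levels per kb in REH and 697, a description over 2 libraries. *CBFA2T3* was nearest to *CDK6* (74.2 and 6.61 CPM per kb, distance 0.39) and then, much farther, to *LYL1* (1.43). *RUNX1* was nearest to the B-cell genes *CD22* (35.0 and 58.3 CPM per kb, distance 0.35) and *BLK* (0.41). *CBFB* was nearest to *LDB1* (0.28) and *HDAC1* (0.31), *CBFA2T2* to *SRC* (0.39) and *KMT2A* (0.76), and *RUNX2* to *CSF1R* (0.92) and *ITGA2B* (1.35).

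The identity of the lines was checked with marker genes. All 11 B-cell precursor markers were above the minimum, 1 was past the threshold towards each line, and their summed level was 5862 CPM in REH and 8367 CPM in 697. *DNTT*, which encodes the terminal transferase of precursor cells, gave 1142 and 4433 CPM of this, and without it the sums were 4720 and 3934 CPM, the other way round. *VPREB1*, a surrogate light chain gene, had 3 reads in REH against 10039 in 697. Several myeloid markers, but not all, were higher in REH as *CBFA2T3* was. Of 6 such markers, 5 had enough reads and 3 were higher in REH, compared with 12.5% of all genes tested. These were *MPO*, *ITGAM* (403 and 0 reads, at least 98.7-fold) and *CD33* (22 and 1 reads). *ITGAM* and *CD33* reached the minimum only through the REH library, where they were high. The summed level of the 6 markers was 261 CPM in REH, most of it from *MPO*, against 2.27 CPM in 697. *CSF1R* went the other way (30 and 61 reads, log2 ratio -1.46, -2.15 to -0.81), and *CD14* had 29 and 8 reads. *LYZ*, a defining myeloid gene, had 1 and 2 reads. The part of these markers in the *CBFA2T3* result was not tested. *CD3D* and *CD2* had 0 reads in both libraries, and summed T-cell markers reached 1.23 and 0.0541 CPM. *CD3E* (45 and 0 reads) and *CD28* (10 and 1) were the T-cell markers past the threshold, and they reached the minimum only through REH. *HBA1*, *HBB* and *PF4* had 0 reads in both, with erythroid and megakaryocyte markers summing to 2.63 and 1.87 CPM. *COL1A2* and *COL3A1* had 0 reads as well, and stromal markers summed to 9.51 and 10.5 CPM, nearly all from *COL1A1*.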

How the data were processed

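The authors deposited STAR read counts for each gene, neither normalized nor filtered, with reads on either strand, on the strand of the gene and on the opposite strand in separate columns. The methods of the study name hg38 and poly(A) purification, whereas the labels name hg19 and ribodepleted, stranded libraries. The annotation release is not given in the sources used here. Reads that mapped to several places were not counted, so stretches that paralogs share are missing. Rows that name no gene (29.3% of REH reads and 30.3% of 697 reads) were left out. The column for either strand was used, since 50.1% and 50.2% of strand-assigned reads lay on the strand of the gene.

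Of 57773 gene IDs, 51996 matched GENCODE 44 on GRCh38, which gave symbols, positions and summed exon lengths. These positions are not those used by the authors. TMM factors (1.11 for REH, 0.899 for 697) came from edgeR 4.0.16 under R 4.3.3. Genes reaching 10 reads in either library were compared by log2 ratio with 0.5 reads added, and 95% Clopper-Pearson intervals and floors of 3 reads cover counting error only. The study used DESeq2, which needs replicates. With 1 library per line no p-value is given. Shares per kb used summed exon length, and their intervals were carried over from those of the reads.

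The members and lists were chosen with earlier results of these data known. Genes named are the members, the genes overlapping them, *ETV6*, up to 3 at each end of every list, all listed genes under 10 reads, and the 2 most alike per member. Other genes (*TLE1*, *BCL6*, *LDB1*, *ITGAL*, *CD79A*, *EBF1*, *PAX5*, the neighbours *SNAI3*, *CPNE7*, *CES3* and *CES4A*, and the markers) were picked after their values were seen. Other settings were unscaled totals, size factors from DESeq2 1.42.0, TMM from protein-coding genes, mitochondrial genes left out, 5 reads added, either strand column, minimums of 1 and 50 reads, a threshold of 1, and other lengths. The marker sum without *DNTT*, the level relations by longest transcript, the summed strand columns and the neighbours were added after seeing the data. Simulated data served as a test of the computation. A few items are not reported here. Python 3.11.15 with scipy 1.17.1 and pandas 2.3.3 was used.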

Additional observations from a re-analysis of the deposited data

Results flagged for a closer look

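The strand columns held reads of *CBFA2T3* that its unstranded count does not include. Its reads on either strand taken separately summed to 30326 in REH and 2113 in 697, which exceeded the unstranded counts by 4055 reads in REH and 312 reads in 697. These reads were dropped from the unstranded count as shared with a gene on the opposite strand. They made up 13.4% and 14.8% of the strand-assigned reads and had a log2 ratio of 3.25 (3.09 to 3.43), so they were higher in REH as well. With them included, the log2 ratio of *CBFA2T3* was 3.40 (3.34 to 3.46). The other 4 counted members had no such reads. No group holds enough samples to look for a library that stands apart.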

How the results depend on the processing

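No paired analysis was possible because REH and 697 had a single library each, and for the same reason no library could be left out. The TMM factors were kept when the minimum or threshold was varied. Unscaled totals moved the median ratio of coding genes by 0.31. They gave log2 ratios of -0.46 for *RUNX1*, 0.23 for *CBFB* (reversed), 0.50 for *CBFA2T2*, -0.91 for *RUNX2* and 3.73 for *CBFA2T3*. *RUNX1* also left its interval with DESeq2 size factors (-0.80) and with reads on the strand of the gene (-0.72). The median of the RUNX2 targets in bone, -0.05 over 3 genes, has no fixed sign, at -0.15 with 5 reads added, 0.26 with unscaled totals, 0.65 with gene-strand reads, 0.79 with opposite-strand reads, and 0.76 with a minimum of 1 read. At a threshold of 1, 1 member (*RUNX2*) was higher in 697, and 4293 genes were higher in REH and 3336 in 697. Against 2396 genes higher in REH and 1560 in 697, a minimum of 1 read gave 3592 and 4411, and a minimum of 50 reads gave 1464 and 1048. At a minimum of 1 read the directions are not alike. A gene with 0 reads in REH and 1 in 697 passes, as *GFI1B* does at -2.03. A gene with 1 and 0 reads does not, as for *YAP1* at 1.14. The 2 counts at this minimum therefore show no turn in the balance. With the longest transcript as length, *RUNX1* made up 99.6% of the RUNX level in REH and 99.4% in 697, and *CBFA2T3* 93.9% and 62.2% of the ETO level. Without length these shares were 99.6% and 99.5%, and 89.9% and 48.5%. With reads on the strand of the gene the share of *CBFA2T3* was 94.3% and 63.3%, and with reads on the opposite strand 94.1% and 64.0%. TMM from protein-coding genes and leaving out mitochondrial genes moved no result beyond its interval. For genes at 0 reads only the floor of 3 reads is measured.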
